A study of Mus musculus with 36 samples.

Results

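Dbp, Tef, Hlf, Nfil3 and Ciart, a set of 5 clock output factors, were followed in the mouse suprachiasmatic nucleus (SCN), the brain's master circadian clock, across 3 circadian times, a light pulse and an inhibitor of MEK1/2. Each gene was read through the brightest probe set that carried its symbol, which made 5 of the 30738 genes that the arrays measured under 1 gene name. Of these, 4 had a probe set with the single symbol, and the probe set of Ciart carried 2 symbols, Ciart and Gm129, that the RefSeq gene table lists as names of 1 gene. Each of the 5 had 1 probe set, so no choice between probe sets was needed.

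The study asked how light and the ERK/MAPK pathway shape SCN gene expression in the day, the early night and the late night. Adult C57BL/6J mice, 8 to 14 weeks old and kept in constant darkness, received U0126 (10 mM, an inhibitor of MEK1/2, the kinases that activate ERK) or its vehicle DMSO through a cannula in the lateral ventricle, and 30 min later a 10 min light pulse of 100 lux or a sham pulse. The design held 4 treatments, U0126-Light, U0126-Sham, DMSO-Light and DMSO-Sham, at each of CT4 (subjective day), CT15 (early subjective night) and CT22 (late subjective night), with 3 arrays a group and 36 in all. Each array held the SCN of 2 mice, all of them wild type, cannulated and infused, so that no group was free of surgery. The tissue was taken 60 min after the pulse by the sample labels and 50 min after it by the series text. The study's text writes the same times as ZT.

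DBP, TEF and HLF are the PAR bZIP factors, activators that bind the D-box, a short DNA element in clock and metabolic genes. NFIL3, also called E4BP4, is a bZIP repressor that binds the same element but lacks the PAR domain, and CIART, also called CHRONO, is no bZIP protein but a repressor of the CLOCK:ARNTL (BMAL1) complex. CLOCK:ARNTL binds E-boxes and drives transcription of Dbp and Ciart in the day, whereas Nfil3 is repressed by the REV-ERB receptors and in many tissues peaks opposite to Dbp. The light pulse acts on the SCN through glutamate from the retina, ERK and CREB, whose element is the CRE, and the Per1 and Per2 genes respond within the hour.

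To show which of these elements lie at the genes, the promoter windows of the PAR bZIP genes and of Ciart are given, from 250 bases before to 50 bases after the annotated start, from RefSeq on GRCm38.p6, in the direction of the gene. All 5 members had a window and Tef had 2, one for each of its annotated starts. Capitals mark an E-box (CACGTG) or a CRE (TGACGTCA). The windows of Ciart (chr3:95882179-95882478, minus strand), Tef (chr15:81802423-81802722 and chr15:81811164-81811463, plus strand), Hlf (chr11:90390868-90391167, minus strand) and Dbp (chr7:45704997-45705296, plus strand) read as follows.
Ciart: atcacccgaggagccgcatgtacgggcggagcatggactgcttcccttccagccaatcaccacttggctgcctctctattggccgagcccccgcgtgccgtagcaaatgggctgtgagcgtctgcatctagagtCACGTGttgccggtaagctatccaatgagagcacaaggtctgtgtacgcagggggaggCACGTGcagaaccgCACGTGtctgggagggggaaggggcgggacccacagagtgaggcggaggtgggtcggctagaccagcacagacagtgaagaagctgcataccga
Tef, upstream start: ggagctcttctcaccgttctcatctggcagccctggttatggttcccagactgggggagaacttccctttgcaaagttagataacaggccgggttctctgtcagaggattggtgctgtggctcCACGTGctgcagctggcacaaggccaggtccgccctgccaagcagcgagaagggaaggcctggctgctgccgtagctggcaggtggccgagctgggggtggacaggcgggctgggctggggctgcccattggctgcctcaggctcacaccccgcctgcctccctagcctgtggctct
Tef, downstream start: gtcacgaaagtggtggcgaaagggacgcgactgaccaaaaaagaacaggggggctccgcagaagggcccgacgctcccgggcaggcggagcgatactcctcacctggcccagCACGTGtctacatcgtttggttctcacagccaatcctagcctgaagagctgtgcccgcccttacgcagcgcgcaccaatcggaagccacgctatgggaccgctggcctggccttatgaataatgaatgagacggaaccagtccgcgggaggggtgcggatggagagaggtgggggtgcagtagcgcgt
Hlf: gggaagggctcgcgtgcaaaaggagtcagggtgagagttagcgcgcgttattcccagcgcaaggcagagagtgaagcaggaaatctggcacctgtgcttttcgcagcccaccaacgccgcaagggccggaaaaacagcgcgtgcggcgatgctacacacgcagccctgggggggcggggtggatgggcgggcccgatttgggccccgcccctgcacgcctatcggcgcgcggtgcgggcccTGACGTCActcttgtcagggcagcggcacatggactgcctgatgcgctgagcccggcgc
Dbp: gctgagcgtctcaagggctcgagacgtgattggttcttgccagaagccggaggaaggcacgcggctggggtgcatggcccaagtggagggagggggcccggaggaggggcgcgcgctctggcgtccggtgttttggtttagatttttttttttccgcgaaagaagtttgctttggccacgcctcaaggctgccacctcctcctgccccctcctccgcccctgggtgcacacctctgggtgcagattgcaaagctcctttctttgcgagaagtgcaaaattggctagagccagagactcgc

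Ciart had 3 E-boxes in the window, whose first bases lay 116, 58 and 44 bases before the start, and 29 of the 32851 mouse promoter windows (0.0883%) had 3 or more. Each Tef window had 1 E-box, at 127 and 138 bases before its start. At least 1 E-box was present in 7.15% of all windows. Hlf had 1 CRE, 9 bases before the start, an element that 1.79% of windows carried. The D-box letters searched, TTATGTAA and TTACGTAA on both strands, were in 1.06% of windows and in none of the 6 windows of the members. No element searched for was found in the windows of Dbp and Nfil3. These are matches of letters and were not tested as binding sites.

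The values are log2 intensities, and a difference of 1 is a 2-fold change. A difference was called when limma's adjusted p (Benjamini-Hochberg over 65956 probe sets) was at most 0.1 and the fold was above 1.3, which is 0.38 on the log2 scale. SD and n = 3 refer to arrays. Medians ran between 4.51 and 4.66, and each array's correlation with the other arrays averaged 0.986 or more. By other measures 2 arrays of CT22 stood apart. U0126-Sham replicate 3 had an array weight of 0.249 in limma, with the next lowest at 0.516, and U0126-Light replicate 3 had a mean of 12 SCN identity genes of 7.54, against 8.16 and 8.05 in replicates 1 and 2 of its group. Without the first no call on the members changed, and without the second 1 did, that of Dbp given below. The defining SCN genes Avp (9.13 to 11.32) and Vip (8.12 to 10.55) were high on every array, and so was Oxt (9.37 to 12.20), a marker of neighbouring hypothalamus. Xist was above 9 on 21 arrays and below 5 on 15. U0126 lowered Dusp6 and Spry4, feedback inhibitors that ERK induces, by 0.61 and 0.45 in U0126-Sham against DMSO-Sham SCN at CT15 (adjusted p = 0.0121 and 0.0371). Among further ERK feedback genes at CT15, Dusp4 averaged 5.77 in U0126-Sham and 6.17 in DMSO-Sham SCN, and Spry2 averaged 6.23 and 6.44. Over the 6 comparisons of U0126 and DMSO, Dusp6 was called lower in 3 and Spry4 in 5. In the sham treatments at CT4, 0 of the 65956 probe sets were called for U0126 against DMSO. The same feedback genes were nonetheless lower there, without overlap of arrays. Dusp4 averaged 6.39 in U0126-Sham and 7.17 in DMSO-Sham SCN, Dusp6 6.34 and 7.00, Spry2 6.13 and 6.72, and Spry4 6.34 and 7.05. The paper lists Dusp4, Spry2 and Spry4 as lowered by U0126 in the day.

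**Figure D1:**
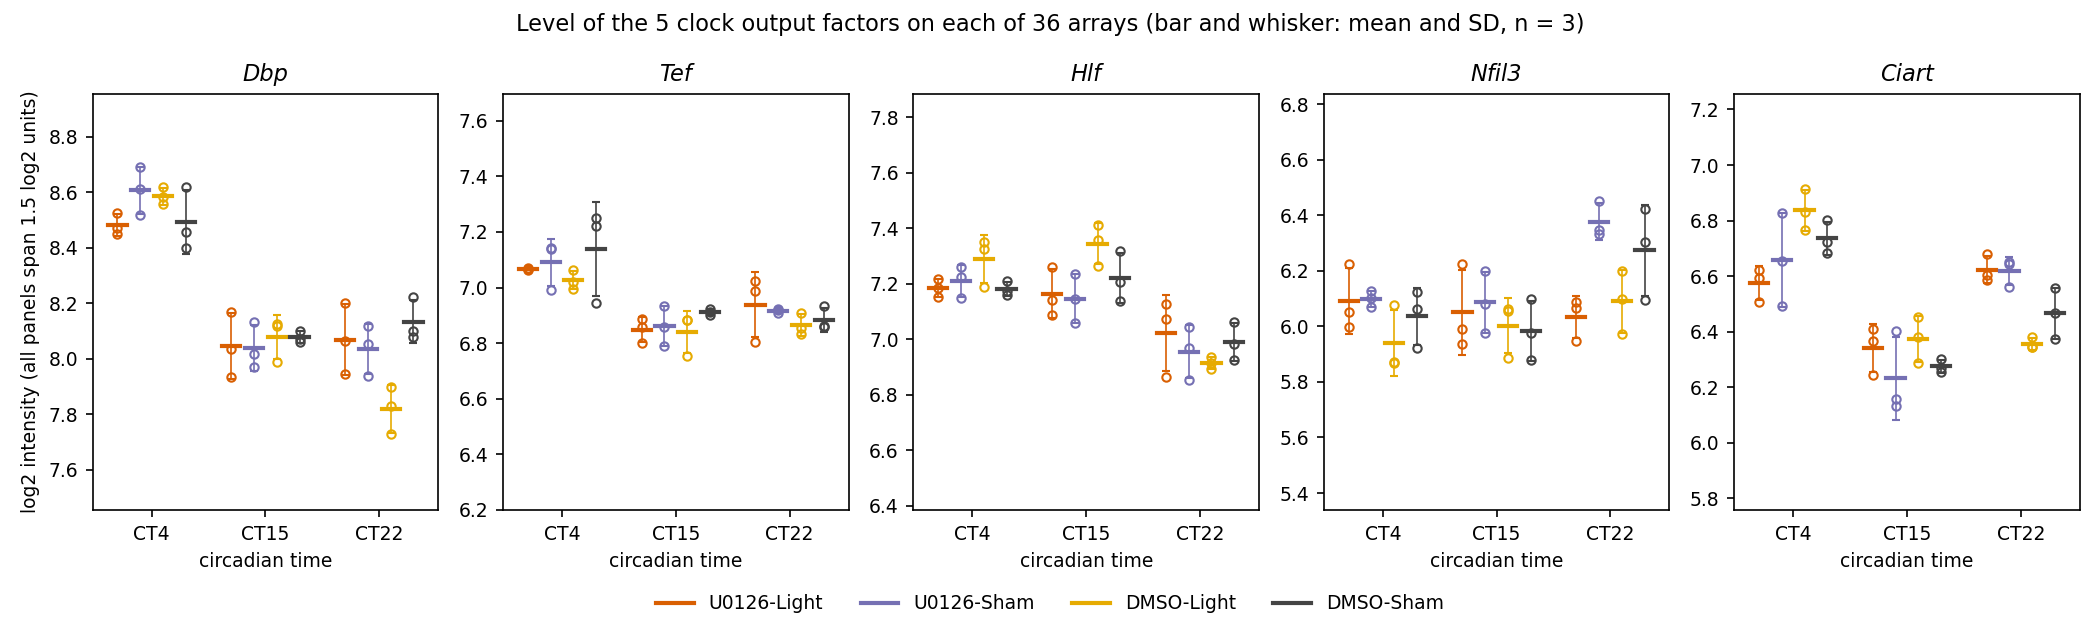
Log2 intensity (y axis, 1.5 log2 units in each panel) of Dbp, Tef, Hlf, Nfil3 and Ciart on each array (open circles), by circadian time (x axis) and treatment (colours, left to right U0126-Light, U0126-Sham, DMSO-Light, DMSO-Sham). Bars and whiskers are the mean and SD of 3 arrays. Dbp was at 8.40 or above on every array at CT4 and at 8.22 or below on every array at CT15 and CT22.

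Dbp, the member with the widest range, was high in the day and low at both night times in every treatment. It averaged 8.54 at CT4, 8.06 at CT15 and 8.01 at CT22 over the 4 treatments. The mean of the 4 treatments was 0.48 lower at CT15 than at CT4 (SE 0.037, a 1.40-fold fall, adjusted p = 1.67e-09) and 0.53 lower at CT22 than at CT4 (SE 0.037, 1.44-fold, adjusted p = 1.43e-10). These means over treatments, like those over light or drug below, were added after the values were seen.

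At CT4 Dbp read 8.53, 8.45 and 8.47 in U0126-Light SCN, 8.69, 8.52 and 8.61 in U0126-Sham SCN, 8.58, 8.56 and 8.62 in DMSO-Light SCN, and 8.62, 8.46 and 8.40 in DMSO-Sham SCN. At CT15 it read 8.17, 7.93 and 8.04 in U0126-Light SCN, 8.13, 8.02 and 7.97 in U0126-Sham SCN, 7.99, 8.12 and 8.13 in DMSO-Light SCN, and 8.10, 8.07 and 8.06 in DMSO-Sham SCN. No array of CT15 reached the lowest array of CT4. At CT22 it read 8.06, 8.20 and 7.94 in U0126-Light SCN, 8.12, 8.05 and 7.94 in U0126-Sham SCN, 7.73, 7.90 and 7.83 in DMSO-Light SCN, and 8.10, 8.08 and 8.22 in DMSO-Sham SCN. The 3 DMSO-Light arrays were the lowest of all 36.

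In the order of the 12 group means, 2 of 11 neighbouring gaps exceeded 2 SE of a difference. One was the gap of 0.35 between the lowest CT4 group and the highest night group, and the other the gap of 0.22 above DMSO-Light at CT22, the lowest group. The remaining neighbours did not differ beyond their spread.

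The fall of Dbp at CT15 against CT4 passed the test in each treatment. It was 0.44 in U0126-Light SCN (adjusted p = 0.00705), 0.57 in U0126-Sham SCN (adjusted p = 0.000208), 0.51 in DMSO-Light SCN (adjusted p = 0.000465) and 0.41 in DMSO-Sham SCN (adjusted p = 0.00154), each with an SE of 0.074. At CT22 against CT4 it fell by 0.41 in U0126-Light SCN (adjusted p = 0.00341), by 0.57 in U0126-Sham SCN (adjusted p = 0.000143) and by 0.77 in DMSO-Light SCN (adjusted p = 1.35e-06). In DMSO-Sham SCN the difference of -0.36 had an adjusted p of 0.00411 but was under the fold threshold, and it was called without DMSO-Sham CT4 replicate 3 (-0.41) or CT22 replicate 3 (-0.40). The DMSO-Sham fall at CT15 missed the fold threshold without DMSO-Sham CT4 replicate 1 (-0.35) and with Xist and Y-linked levels as covariates (-0.35), where 3 of 3 arrays at CT4 but 1 of 3 at CT15 had Xist above 9. The U0126-Light fall at CT22 missed it without U0126-Light CT22 replicate 3 (-0.35) and with the same covariates (-0.35).

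Tef, the second PAR bZIP activator, followed the direction of Dbp with a smaller range and was called in no single treatment. It averaged 7.08 at CT4, 6.86 at CT15 and 6.90 at CT22 over the 4 treatments. The mean was 0.22 lower at CT15 than at CT4 (SE 0.033, adjusted p = 3.00e-05) and 0.18 lower at CT22 than at CT4 (SE 0.033, adjusted p = 0.000204), both under the fold threshold. At CT4 Tef read 7.06, 7.07 and 7.07 in U0126-Light SCN, 7.14, 7.14 and 6.99 in U0126-Sham SCN, 7.02, 7.00 and 7.06 in DMSO-Light SCN, and 7.25, 7.22 and 6.94 in DMSO-Sham SCN. The 24 night arrays lay between 6.75 and 7.02, so that the lowest day arrays overlapped with the highest night arrays. Within treatments, the CT15 minus CT4 differences ran between -0.23 and -0.19 in all 4, without overlap of arrays in any, and reached an adjusted p of 0.0373 in U0126-Sham SCN. None of the 11 neighbouring gaps among the group means exceeded 2 SE in Tef, nor in Hlf, Nfil3 or Ciart.

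Hlf, the third PAR bZIP activator, had another pattern: it was as high at CT15 as at CT4 and low at CT22. It averaged 7.22 at CT4, 7.22 at CT15 and 6.97 at CT22 over the 4 treatments. The mean at CT22 was 0.25 below that at CT15 (SE 0.035, adjusted p = 1.24e-06) and 0.25 below that at CT4 (SE 0.035, adjusted p = 6.70e-06). The difference of CT15 and CT4 was 0.00 (95% interval -0.07 to 0.07).

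At CT22 Hlf read 7.13, 7.07 and 6.87 in U0126-Light SCN, 6.97, 7.04 and 6.85 in U0126-Sham SCN, 6.89, 6.94 and 6.92 in DMSO-Light SCN, and 6.98, 6.92 and 7.06 in DMSO-Sham SCN. At CT15 it read 7.14, 7.09 and 7.26 in U0126-Light SCN, 7.24, 7.06 and 7.14 in U0126-Sham SCN, 7.36, 7.26 and 7.41 in DMSO-Light SCN, and 7.14, 7.32 and 7.21 in DMSO-Sham SCN. The groups of the 2 times did not overlap in 3 treatments and overlapped in U0126-Light SCN. The only call was in DMSO-Light SCN, where Hlf fell by 0.43 at CT22 against CT15 (SE 0.069, 1.35-fold, adjusted p = 0.000120). In DMSO-Sham SCN the same difference was -0.23 (adjusted p = 0.0258), and in U0126-Sham SCN -0.19 (adjusted p = 0.0425). At CT22 against CT4 the DMSO-Light difference of -0.37 (adjusted p = 0.00576) was under the fold threshold, and it was called without DMSO-Light CT4 replicate 3 (-0.42) or CT22 replicate 2 (-0.38).

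The Hlf values moved with the SCN marker level of the arrays. Over 36 arrays, the deviations of Hlf from its group means had a correlation of 0.83 with those of the mean of 12 SCN identity genes (12 of 13 measured, among them Avp, Vip, Nms, Six6, Lhx1 and the clock-controlled Rora), a description over arrays on which both were read from the same tissue. The list itself holds genes that differ with time, since 4 of the 12 rose and 3 fell at CT15 against CT4 in the mean of the 4 treatments. In DMSO-Light SCN the SCN identity mean was 7.86 at CT22 (7.84 to 7.88 by array) and 8.39 at CT15 (8.27 to 8.59). The mean of 8 genes of neighbouring hypothalamus was 8.14 at CT22 (8.07 to 8.24) and 7.51 at CT15 (7.15 to 7.84), and that of 8 microglia genes 6.84 at CT22 (6.69 to 7.09) and 6.49 at CT15 (6.37 to 6.58), both without overlap. The deviations of Hlf had a correlation of -0.37 with the hypothalamus list and 0.15 with the microglia list, and the part of these lists in the Hlf difference was not tested. With the SCN identity mean as a covariate, a setting added after the values were seen, the DMSO-Light difference of Hlf at CT22 against CT15 was -0.22 (adjusted p = 0.0669) and was not called. The mean fall over the 4 treatments was then 0.23 (adjusted p = 1.70e-08). In pooled tissue, fewer SCN cells and less RNA per cell cannot be told apart.

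**Figure D2:**
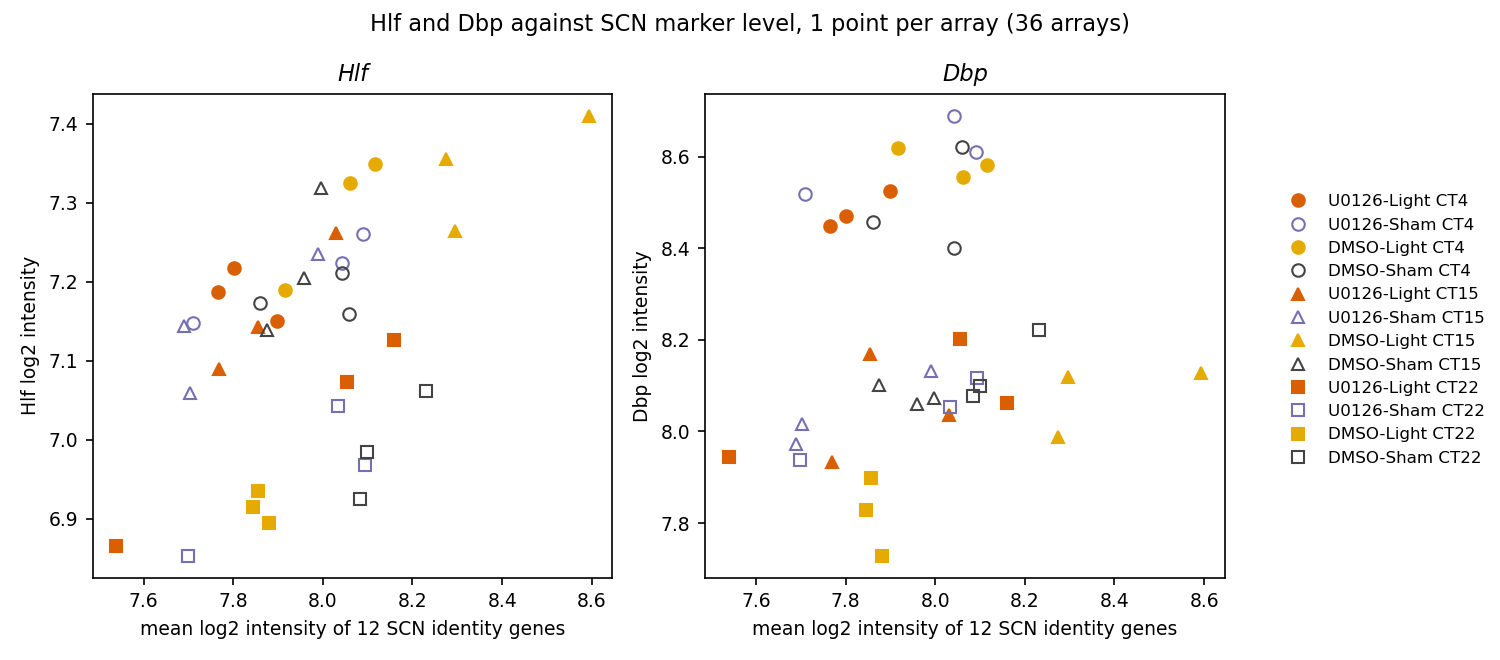
Log2 intensity of Hlf (left) and Dbp (right) on the y axis against the mean log2 intensity of 12 SCN identity genes (x axis), with 1 point for each of 36 arrays, coloured by treatment (filled Light, open Sham) and shaped by time (circles CT4, triangles CT15, squares CT22). The correlation of deviations from group means was 0.83 for Hlf and 0.60 for Dbp, and the CT22 arrays of Hlf lie below most day and early night arrays at a like SCN marker level.

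Nfil3, the repressor that binds the D-box, was highest at CT22 in the sham treatments. At CT22 it read 5.95, 6.07 and 6.09 in U0126-Light SCN, 6.45, 6.35 and 6.33 in U0126-Sham SCN, 6.10, 5.97 and 6.20 in DMSO-Light SCN, and 6.10, 6.30 and 6.42 in DMSO-Sham SCN. The 3 U0126-Sham arrays and 2 of the 3 DMSO-Sham arrays were above every other array of the series. At CT4 and CT15 the 24 arrays lay between 5.87 and 6.23.

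The CT22 minus CT15 difference of Nfil3 was -0.02 in U0126-Light SCN, 0.29 in U0126-Sham SCN (SE 0.091, adjusted p = 0.0194), 0.09 in DMSO-Light SCN and 0.29 in DMSO-Sham SCN (SE 0.091, adjusted p = 0.0338), none of them past the fold threshold. Over the 4 treatments the mean was 0.16 higher at CT22 than at CT15 (SE 0.045, adjusted p = 0.00442). Without DMSO-Sham CT22 replicate 1 the DMSO-Sham difference was 0.38 and was called (adjusted p = 0.0109). Other marker lists moved with these differences. Of the deviations of Nfil3 from its group means, the correlation over 36 arrays was 0.54 with the neighbouring hypothalamus list, -0.46 with endothelium, 0.30 with microglia and 0.29 with astrocytes. In U0126-Sham SCN the hypothalamus mean was 8.04 at CT22 (7.85 to 8.14) and 7.41 at CT15 (7.23 to 7.60), and in DMSO-Sham SCN it was 7.73 (7.65 to 7.88) and 7.55 (7.36 to 7.68), with overlap. In DMSO-Sham SCN the microglia mean was 7.34 at CT22 (7.13 to 7.55) and 6.55 at CT15 (6.54 to 6.56), and the mean of 7 astrocyte genes 8.13 (8.11 to 8.18) and 7.87 (7.77 to 7.94). The mean of 7 endothelium genes in U0126-Sham SCN was 6.03 at CT22 (6.00 to 6.08) and 6.18 at CT15 (6.09 to 6.23). In DMSO-Sham SCN it was 6.38 and 6.35, with overlap. The part of these lists in the Nfil3 differences was not tested.

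Ciart, the CLOCK:ARNTL repressor, was highest at CT4 and lowest at CT15 in the mean of the 4 treatments, and at CT22 it was higher on the U0126 arrays than on the DMSO arrays. That order of times did not hold in every treatment: U0126-Light SCN averaged 6.62 at CT22 and 6.57 at CT4, and DMSO-Light SCN 6.36 at CT22 and 6.37 at CT15, both within the spread. It averaged 6.70 at CT4, 6.31 at CT15 and 6.52 at CT22 over the 4 treatments. The mean was 0.40 lower at CT15 than at CT4 (SE 0.037, 1.32-fold, adjusted p = 3.52e-08), which passed the test, and 0.21 higher at CT22 than at CT15 (SE 0.037, adjusted p = 4.03e-05), under the fold threshold. Without U0126-Sham CT4 replicate 2 the first of these was -0.37 and missed the fold threshold.

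At CT4 Ciart read 6.62, 6.51 and 6.59 in U0126-Light SCN, 6.66, 6.83 and 6.49 in U0126-Sham SCN, 6.83, 6.91 and 6.77 in DMSO-Light SCN, and 6.72, 6.68 and 6.80 in DMSO-Sham SCN. At CT15 it read 6.41, 6.37 and 6.24 in U0126-Light SCN, 6.40, 6.13 and 6.16 in U0126-Sham SCN, 6.38, 6.45 and 6.29 in DMSO-Light SCN, and 6.30, 6.26 and 6.27 in DMSO-Sham SCN. The arrays of the 2 times did not overlap in any treatment. At CT22 it read 6.59, 6.68 and 6.61 in U0126-Light SCN, 6.65, 6.64 and 6.56 in U0126-Sham SCN, 6.38, 6.34 and 6.35 in DMSO-Light SCN, and 6.47, 6.56 and 6.37 in DMSO-Sham SCN. At CT22 the 6 U0126 arrays lay above the 6 DMSO arrays, the nearest of them equal to 2 decimals.

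At CT15 against CT4 Ciart fell by 0.43 in U0126-Sham SCN (adjusted p = 0.00211), by 0.46 in DMSO-Light SCN (adjusted p = 0.00125) and by 0.46 in DMSO-Sham SCN (adjusted p = 0.000619), with an SE of 0.075, whereas the difference of -0.23 in U0126-Light SCN was not called (adjusted p = 0.110). At CT22 against CT4 the difference was 0.05 in U0126-Light SCN, -0.04 in U0126-Sham SCN, -0.48 in DMSO-Light SCN (called, adjusted p = 0.00140) and -0.27 in DMSO-Sham SCN (adjusted p = 0.0341, under the fold threshold). At CT22 against CT15 Ciart rose by 0.39 in U0126-Sham SCN (adjusted p = 0.000410), and the difference was 0.28 in U0126-Light SCN (adjusted p = 0.0105), -0.02 in DMSO-Light SCN and 0.19 in DMSO-Sham SCN (adjusted p = 0.104). The U0126-Sham fall at CT15 missed the fold threshold without U0126-Sham CT4 replicate 2 (-0.34) or CT15 replicate 2 (-0.38), and the rise at CT22 missed it without U0126-Sham CT15 replicate 2 (0.34), CT15 replicate 3 (0.35), CT22 replicate 1 (0.37) or CT22 replicate 2 (0.37).

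**Figure D3:**
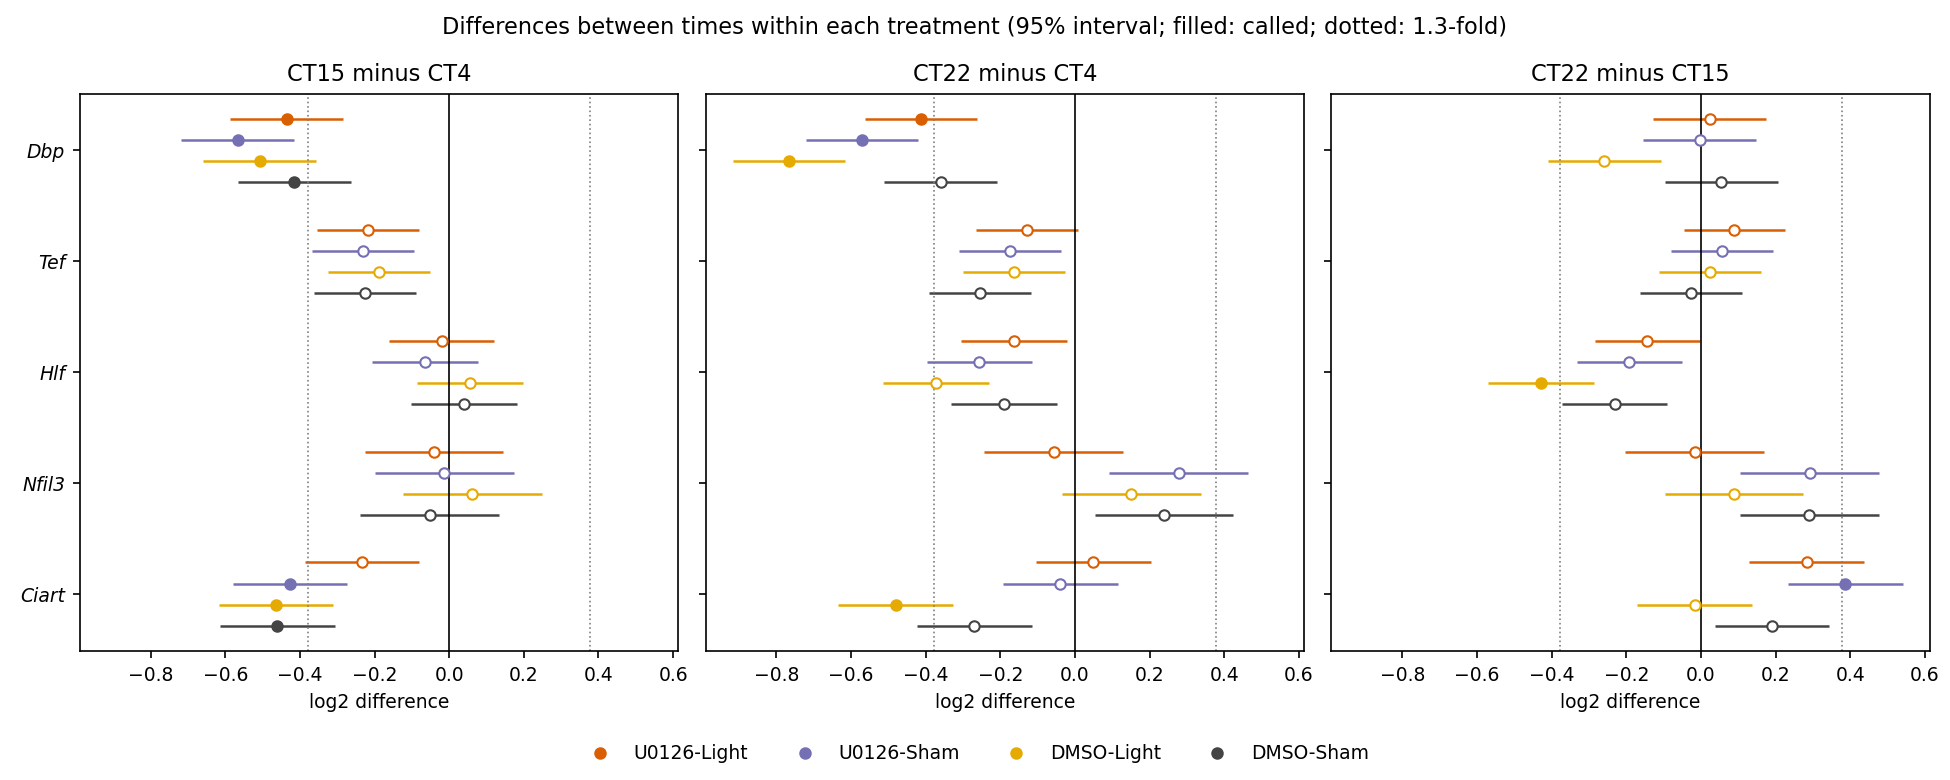
Log2 differences between times (x axis, later minus earlier) of the 5 genes (y axis) in U0126-Light, U0126-Sham, DMSO-Light and DMSO-Sham SCN (colours, top to bottom). Lines are 95% intervals, filled points passed the test and dotted lines mark 1.3-fold. Dbp was called in 4 treatments at CT15 minus CT4 and in 3 at CT22 minus CT4, and Ciart in 3 and in 1.

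Set against all probe sets, the calls between times were as follows. At CT15 minus CT4, 1 of 5 members (Dbp) was called in U0126-Light SCN, where 1.40% of all probe sets were called in either direction. In the other treatments 2 of 5 (Dbp and Ciart) were called, where the shares of all probe sets were 4.71% in U0126-Sham SCN, 1.75% in DMSO-Light SCN and 2.21% in DMSO-Sham SCN. At CT22 minus CT4, 1 of 5 (Dbp) was called in U0126-Light SCN (3.88% of all) and in U0126-Sham SCN (4.10%). In DMSO-Light SCN 2 of 5 (Dbp and Ciart) were called (1.65%), and in DMSO-Sham SCN 0 of 5 (3.15%). In DMSO-Sham SCN limma gave all 5 an unadjusted p under 0.05, beside 11217 of the 65956 probe sets.

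At CT22 minus CT15, 1 of 5 was called in U0126-Sham SCN (Ciart, 13.3% of all probe sets) and in DMSO-Light SCN (Hlf, 7.16%). In U0126-Light SCN (8.85%) and in DMSO-Sham SCN (5.96%) 0 of 5 were called. There 2 and 3 members had an unadjusted p under 0.05 in limma, beside 18532 and 15800 of the 65956 probe sets. For the means over the 4 treatments, 2 of 5 were called at CT15 minus CT4 (1.79% of all). At CT22 minus CT4 it was 1 of 5 (1.96%), and at CT22 minus CT15 0 of 5 (7.30%). In the last, 3 members had an unadjusted p under 0.05 in limma, beside 33613 of the 65956 probe sets. The median of these mean differences at CT15 minus CT4 was -0.22 over the members, beside 0.01 over all probe sets.

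None of the 5 members passed the test for light at any time, in either drug. In U0126-treated SCN, 0 of 5 were called at CT4, CT15 and CT22, where 0% of all probe sets were called at each time and limma gave 0, 0 and 1 members an unadjusted p under 0.05. In DMSO-treated SCN, 0 of 5 were called at CT4 (0% of all), CT15 (0.105%) and CT22 (0.660%), with 0, 0 and 1 members at an unadjusted p under 0.05. Xist was above 9 on 0 of 3 DMSO-Light and 3 of 3 DMSO-Sham arrays at CT4, so light and sex cannot be told apart within that pair. In the mean of both drugs, 0 of 5 were called at CT4 (0%), CT15 (0.0425%) and CT22 (0.0303%), with 0, 0 and 2 members at an unadjusted p under 0.05. Over these comparisons of Light and Sham, 2815 to 5534 of the 65956 probe sets had an unadjusted p under 0.05 in limma.

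The nearest to a light response was Dbp at CT22. DMSO-Light arrays read 7.73, 7.90 and 7.83 and DMSO-Sham arrays 8.10, 8.08 and 8.22, without overlap. The difference was -0.31 (SE 0.074, 95% interval -0.46 to -0.16, adjusted p = 0.0497), below 1.3-fold. Under U0126 the difference of Light and Sham at CT22 was 0.03 (95% interval -0.12 to 0.18, adjusted p = 0.995). The light response under U0126 minus that in DMSO was 0.35 (SE 0.104), with an unadjusted p of 0.00243 and an adjusted p of 0.599, so the test of the difference over all probe sets was not passed.

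The means of 4 marker lists moved with this Dbp difference, each without overlap. The SCN identity mean was 7.86 in DMSO-Light SCN (7.84 to 7.88) and 8.14 in DMSO-Sham SCN (8.08 to 8.23) at CT22. The mean of 8 microglia genes was 6.84 in DMSO-Light SCN (6.69 to 7.09) and 7.34 in DMSO-Sham SCN (7.13 to 7.55). The neighbouring hypothalamus mean was 8.14 in DMSO-Light SCN (8.07 to 8.24) and 7.73 in DMSO-Sham SCN (7.65 to 7.88), and the astrocyte mean 7.87 in DMSO-Light SCN (7.80 to 7.92) and 8.13 in DMSO-Sham SCN (8.11 to 8.18). The part of the last 3 lists in the Dbp difference was not tested. With the SCN identity mean as a covariate the Dbp difference was -0.23 (adjusted p = 0.220). With Xist and Y-linked levels as covariates, it was -0.31 (adjusted p = 0.0337). Leaving out 1 array at a time gave differences of -0.35 to -0.27 with adjusted p of 0.0734 to 0.367.

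Nfil3 had its lowest light difference at CT22 too. It was -0.34 in U0126-treated SCN (SE 0.091, 95% interval -0.53 to -0.16), where the U0126-Light arrays lay below the U0126-Sham arrays, with an unadjusted p of 0.000762 and an adjusted p of 0.786. In DMSO-treated SCN it was -0.18 (95% interval -0.37 to 0.00, adjusted p = 0.651). The mean over both drugs was -0.26 (SE 0.064, unadjusted p = 0.000319, adjusted p = 0.169). Over the other comparisons of Light and Sham, the differences of Nfil3 ran between -0.10 and 0.02. The endothelium mean at CT22 was 6.20 in U0126-Light (6.17 to 6.23) and 6.03 in U0126-Sham SCN (6.00 to 6.08). In DMSO-Light and DMSO-Sham SCN it was 6.27 and 6.38, with overlap. The neighbouring hypothalamus mean was 8.04 in both U0126 groups at CT22. The part of these lists in the light differences of Nfil3 was not tested.

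In Tef, Hlf and Ciart the light differences, in each drug at each time, ran between -0.11 and 0.02, between -0.07 and 0.12 and between -0.11 and 0.11 in that order. The 95% intervals reached from -0.25 to 0.16 for Tef, from -0.22 to 0.26 for Hlf and from -0.26 to 0.26 for Ciart, so that light differences of 1.3-fold lay outside all of them. Hlf, whose window held a CRE, had a light difference of 0.12 in DMSO-treated SCN at CT15 (adjusted p = 0.777). With the SCN identity mean as a covariate this difference was -0.06. That list holds Rora, which was itself 0.79 higher in DMSO-Light than in DMSO-Sham SCN at CT15 (adjusted p = 0.00419 in limma). Here the covariate cannot separate SCN content from a light response. Whether the CRE acts was not tested. At CT15 Per2, a gene induced by light, was 0.59 higher in DMSO-Light than in DMSO-Sham SCN (adjusted p = 3.92e-06). Per1 averaged 7.77 in DMSO-Light and 7.40 in DMSO-Sham SCN at CT15 and was not called. At CT22 Per1 averaged 7.70 in DMSO-Light and 7.69 in DMSO-Sham SCN, and Per2 averaged 7.29 and 7.15. Neither was called there.

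None of the members passed the test for U0126 either. In light-pulsed SCN, 0 of 5 were called at CT4 (0.0136% of all probe sets), CT15 (0.233%) and CT22 (0.0136%), with 1, 1 and 2 members at an unadjusted p under 0.05 in limma. In sham-treated SCN, 0 of 5 were called at CT4 (0%), CT15 (3.49%) and CT22 (1.12%), and none of the members had an unadjusted p under 0.05. In the mean of light and sham, 0 of 5 were called at CT4 (0.0212%), CT15 (2.87%) and CT22 (0.901%), with 1 member at an unadjusted p under 0.05 at each time. Over these comparisons of U0126 and DMSO, 2658 to 11230 of the 65956 probe sets had an unadjusted p under 0.05 in limma.

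Ciart had the clearest drug differences. At CT22 it averaged 6.62 ± 0.05 in U0126-Light SCN and 6.36 ± 0.02 in DMSO-Light SCN (SD, n = 3 each), a difference of 0.27 (SE 0.075, unadjusted p = 0.00133, adjusted p = 0.315 by limma). In the sham treatments at CT22 the difference was 0.15 (adjusted p = 0.556). The mean of both was 0.21 (SE 0.053, adjusted p = 0.0449), under the fold threshold. Over 36 arrays, the deviations of Ciart from its group means had a correlation of -0.48 with the microglia list. At CT22 the microglia mean was 6.78 in U0126-Sham (6.74 to 6.81) and 7.34 in DMSO-Sham SCN (7.13 to 7.55). In the light-pulsed groups it was 6.76 with U0126 and 6.84 with DMSO, with overlap. The part of this list in the Ciart differences was not tested. At CT4 the U0126 difference of Ciart had the opposite sign, with -0.26 in light-pulsed SCN (unadjusted p = 0.00156, adjusted p = 0.806) and -0.08 in sham-treated SCN. Xist was above 9 on 3 of 3 U0126-Light and 0 of 3 DMSO-Light arrays at CT4, so drug and sex cannot be told apart within that pair. With Xist and Y-linked levels as covariates, the light-pulsed difference at CT4 was -0.26 (adjusted p = 0.942 in limma). The U0126 difference with light at CT22 minus that at CT4 was 0.53 (SE 0.106, adjusted p = 0.102).

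The test of whether the treatments differed between times (the 6 time-by-treatment terms together, an F test in limma, called by adjusted p alone) was passed by 1 of 5 members, Ciart (adjusted p = 0.0582), beside 1.48% of all probe sets. Without each array in turn the adjusted p of Ciart lay between 0.0221 and 0.126 and was called in 30 of 36 cases. The calls ended without DMSO-Light CT4 replicate 2, U0126-Light CT4 replicate 2, DMSO-Light CT22 replicate 1, 2 or 3, or U0126-Sham CT22 replicate 1. The adjusted p was 0.223 for Dbp, 0.558 for Nfil3, 0.571 for Hlf and 0.965 for Tef. The light by U0126 interaction was called for 0 of 5 members at CT4, CT15 and CT22, as for 0% of all probe sets at each time. It had an unadjusted p under 0.05 in limma for 1, 0 and 1 members, beside 2006, 3964 and 3515 of the 65956 probe sets.

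The other members had no drug difference with an adjusted p of 0.1 or less. For Dbp the difference of U0126-Light and DMSO-Light at CT22 was 0.25 (95% interval 0.10 to 0.40, adjusted p = 0.351), and for Hlf the same pair at CT15 gave -0.18 (95% interval -0.32 to -0.04, adjusted p = 0.329). The SCN identity mean was 7.88 in U0126-Light and 8.39 in DMSO-Light SCN at CT15, and with it as a covariate the Hlf difference was 0.02 (adjusted p = 0.953). That list holds Rora, which was itself 0.86 lower in U0126-Light than in DMSO-Light SCN at CT15 (adjusted p = 0.00126 in limma). The covariate therefore cannot separate SCN content from a drug response in this comparison. For Tef the drug differences ran between -0.05 and 0.07 and for Nfil3 between -0.06 and 0.15.

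**Figure D4:**
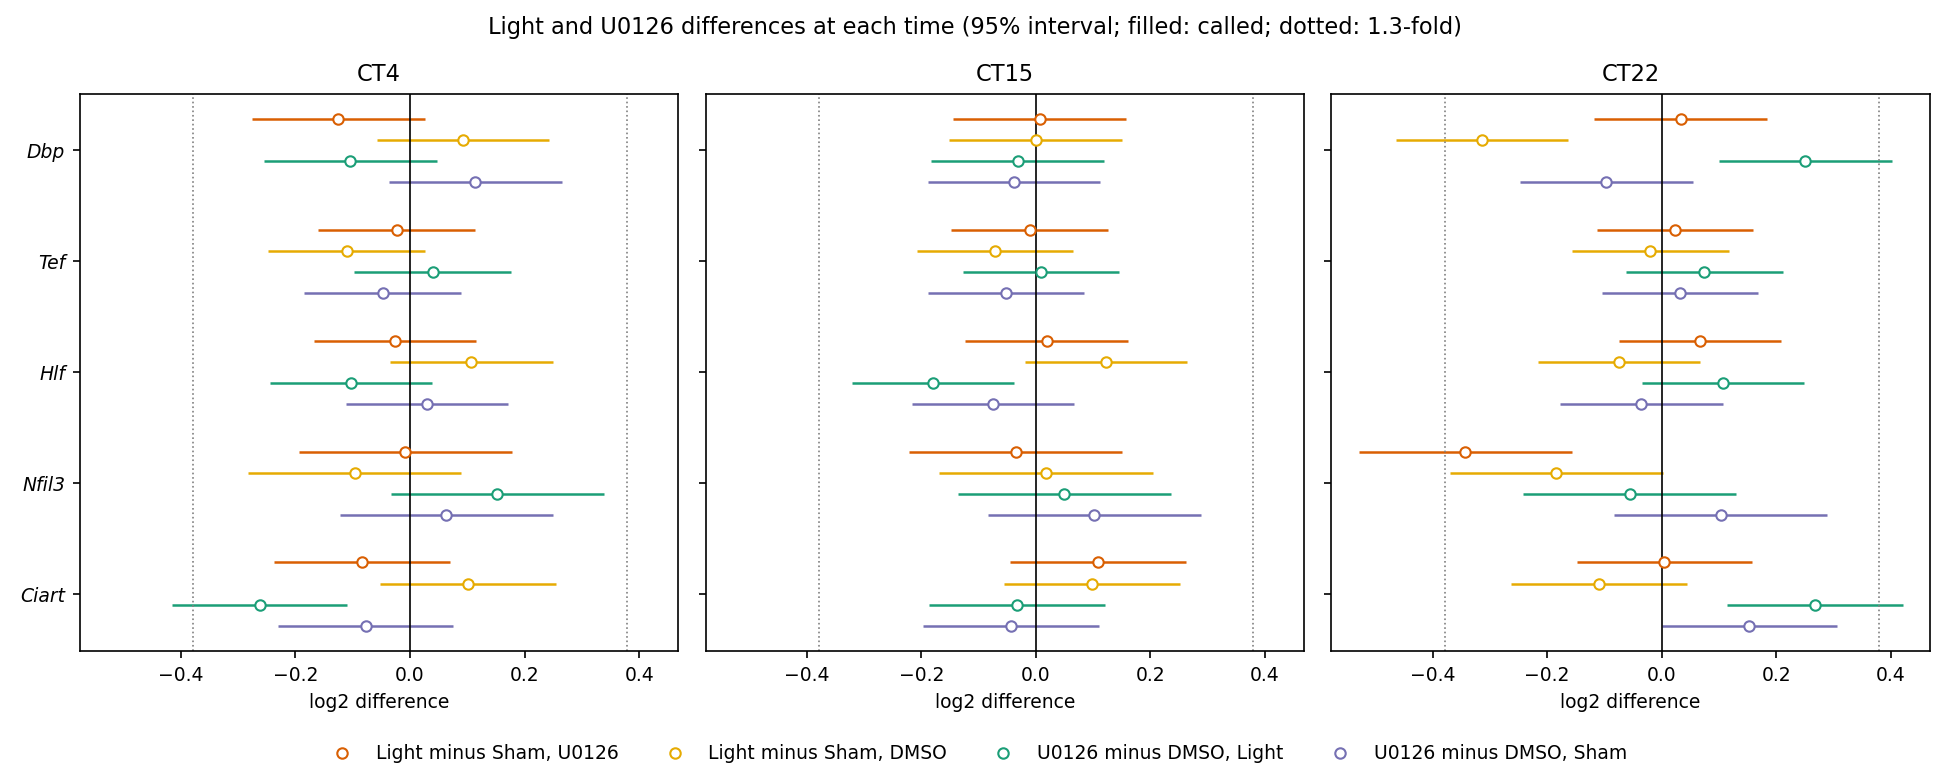
Log2 differences (x axis) of the 5 genes (y axis) at CT4, CT15 and CT22 for Light minus Sham in U0126 and in DMSO, and U0126 minus DMSO in Light and in Sham (colours, top to bottom). Lines are 95% intervals and dotted lines mark 1.3-fold. All points are open, since no member was called, and the points farthest from 0 are Nfil3 (-0.34, Light minus Sham in U0126) and Dbp (-0.31, Light minus Sham in DMSO) at CT22.

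Among themselves, the day-high members went together. Over the 36 arrays, which share the time of day and the tissue pieces, the correlation was 0.77 for Dbp and Tef, 0.67 for Dbp and Ciart and 0.64 for Tef and Ciart. Hlf had 0.52 with Dbp and 0.12 with Tef, and Nfil3 had -0.52 with Hlf and -0.18 with Dbp. After group means were taken out, the correlation of Dbp was 0.28 with Tef and 0.04 with Ciart, and that of Tef with Hlf was -0.38.

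The genes whose pattern over the 36 arrays was most like each member were ranked by Pearson correlation among 15369 named genes at or above the median level. Nr1d2, which encodes REV-ERBβ and is itself a clock output, led the list of Dbp (0.91), followed by Slc2a13 (0.88), Kcnip3 (0.86), Enox2 (0.85) and Nploc4 (0.85). For Tef they were Slc7a10, Lancl1 and Adgra1 (0.87 each), Tmem64 (0.85) and Rgs6 (0.84). For Hlf they were Fnip1 (0.92), Epb41l5, C1ql3 and Rorb (0.90 each) and Kdm5a (0.89), and Rorb is a nuclear receptor of the clock. Nfil3 had lower values, with Gm2735 (0.74), Incenp (0.72), Mcm2 (0.71), Gm9457 (0.70) and Appbp2os (0.70). Ciart was led by Dgat2 (0.90), Syt13 (0.86), Slc25a16 (0.86), Rasl11b (0.83) and Aldh9a1 (0.83). After group means were taken out, the correlation was -0.06 for Enox2 with Dbp and 0.11 for Rasl11b with Ciart. For the other most alike genes it ran between 0.25 (Nploc4 with Dbp) and 0.79 (Lancl1 with Tef).

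The most opposite patterns were Mir1950 (-0.78), Naca (-0.76) and Gm24086 (-0.75) for Dbp, and Mir1950 (-0.79), Gm15387 (-0.77) and Ube3a (-0.77) for Tef. For Hlf they were Mir2137 (-0.85), Snord11 (-0.84) and Rarg (-0.84), for Nfil3 Clmn (-0.72), Sec24a (-0.70) and 1700025G04Rik (-0.68), and for Ciart Mtus1 (-0.76), BC065397 (-0.75) and Smarce1-ps1 (-0.73).

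The partners of the members in the clock gave the setting. In the core clock list, 17 of 19 genes were measured, and over the mean of the 4 treatments 1 rose and 2 fell at CT15 against CT4: Arntl was higher by 0.49, and Nr1d1 fell by 0.78 and Per1 fell by 0.41. Of 12 measured D-box genes, the targets of the PAR bZIP factors and NFIL3, 2 fell at CT15 against CT4 (Nr1d1 and Per1) and 2 at CT22 against CT4 (Rora and Per3), and the list's median differences were -0.11 and -0.25, beside 0.01 and 0.03 over all probe sets. Of 9 E-box outputs, the genes driven as Dbp and Ciart are, 4 fell at CT15 against CT4, and Prok2 (-1.15) and Avp (-1.12), SCN output peptides, changed most. These lists share Per1, Per2, Per3 and Nr1d1. Of all probe sets, 1.79% were called at CT15 against CT4 and 1.96% at CT22 against CT4 in the mean of the 4 treatments. None of 10 C/EBP and other bZIP relatives of the PAR factors was called in the 3 mean time comparisons, the third being CT22 minus CT15 (7.30% of all probe sets). In DMSO-Sham SCN alone, Cebpb was 0.38 higher (adjusted p = 0.0192 in limma) at CT22 than at CT15. Cebpd was 0.63 higher there (adjusted p = 0.0450), with overlap of arrays. Both were called, beside 5.96% of all probe sets.

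At the light response of CT15 in DMSO, where no member was called, 3 of 17 core clock genes rose (Per2, Rora and Fbxl21) and 2 of 12 D-box genes (Per2 and Rora), and at CT22 neither list had a call. Of all probe sets, 0.105% were called for light in DMSO at CT15 and 0.660% at CT22. Under U0126 with light, Per2 was 0.68 and Rora 0.86 lower than in DMSO-Light SCN at CT15.

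**Figure D5:**
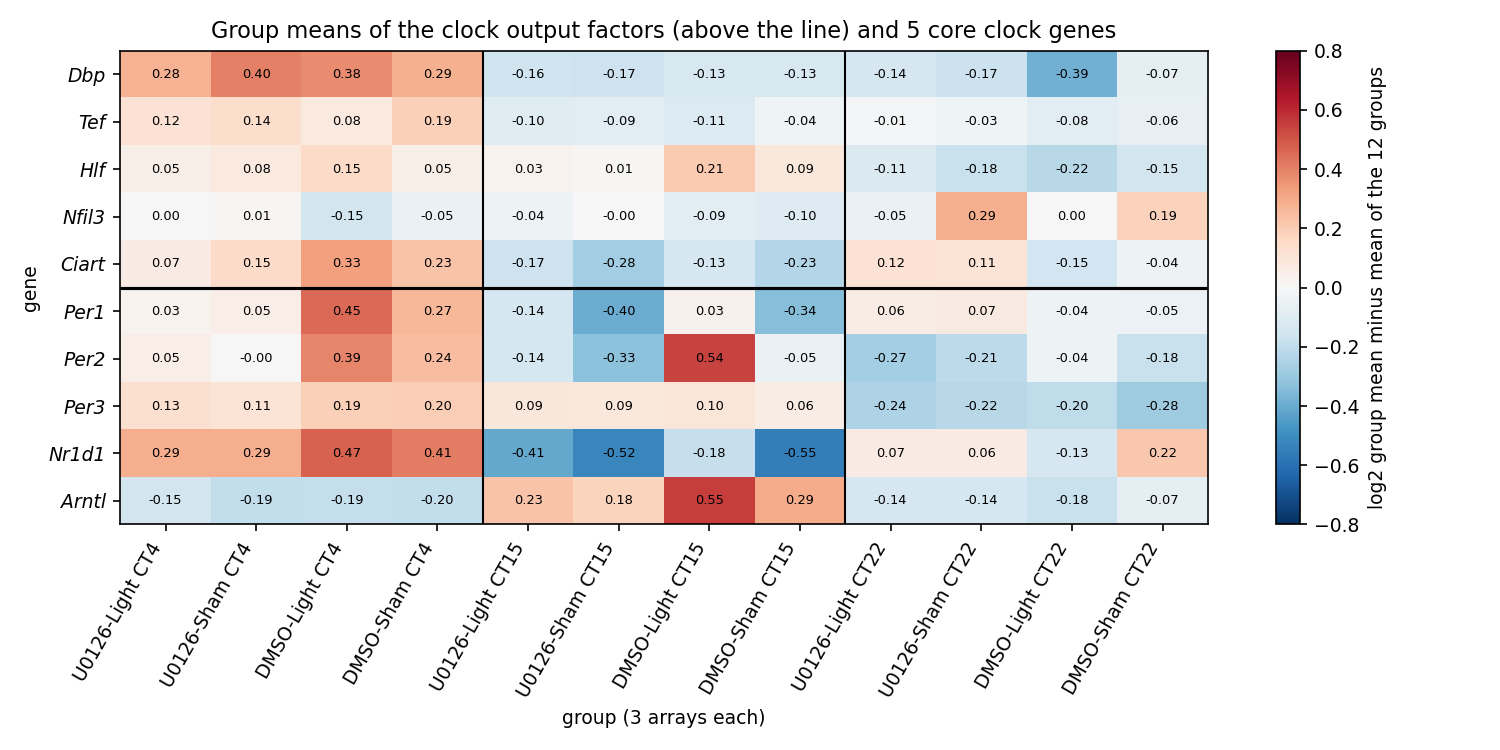
Group means (log2) of the 5 clock output factors, above the line, and of Per1, Per2, Per3, Nr1d1 and Arntl, below it, each minus the mean of its 12 groups (red high, blue low). Columns are the groups at CT4, CT15 and CT22, with U0126-Light, U0126-Sham, DMSO-Light and DMSO-Sham in each time. Dbp ran between -0.39 (DMSO-Light, CT22) and 0.40 (U0126-Sham, CT4), and Arntl was above its mean at CT15 alone.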

How the data were processed

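SCN pieces of 2 mice were pooled for each of 36 Affymetrix mouse transcriptome arrays. The deposited values are log2 intensities per probe set, which the authors made with the R package oligo and tested with limma, and the normalization and build are not given in the sources used here. Of the deposited probe sets, 65956 were tested after control probe sets were left out. Those with 1 symbol numbered 30638, 654 had several symbols that RefSeq names resolve to 1 gene, 1522 several genes and 33142 none. The 12 group means were fitted to all 36 arrays in limma 3.58.1 (R 4.3.3) with eBayes, and Benjamini-Hochberg adjustment ran within each comparison. Arrays were grouped by their titles, and p-values measure the spread between pools of mice. The text names the 5 members, their 5 most alike and 3 most opposite genes and at most 4 genes of a list. Differences in means over treatments, drugs or light and the SCN marker covariate were added after the data were seen. The members and lists were chosen with earlier results of these data known. Same-numbered arrays deviated together (all 3 correlations above 0.1) in 2 of 18 pairs of groups, U0126-Sham and DMSO-Sham at CT4 and U0126-Light and DMSO-Light at CT15, which were also fitted with the number as a block. The closing section gives the alternatives. The number of arrays limits the precision.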

Additional observations from a re-analysis of the deposited data

Results flagged for a closer look

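Ciart was the member whose treatment effects differed between the 3 times in a joint test of the time-by-treatment terms, with an adjusted p of 0.0582 in limma over all probe sets. Its U0126 difference in light-pulsed SCN was 0.27 at CT22 and -0.26 at CT4, and at CT22 the 3 U0126-Light arrays lay above the 3 DMSO-Light arrays. At CT4, Xist was above 9 on 3 of 3 U0126-Light and 0 of 3 DMSO-Light arrays, so drug and sex went together there. With Xist and Y-linked levels as covariates, the adjusted p of the joint test was 0.0939. The SCN identity mean was 7.92 in U0126-Light and 7.86 in DMSO-Light SCN at CT22, and with it as a covariate the adjusted p was 0.0832. At CT4 that mean was 7.82 in U0126-Light (7.77 to 7.90) and 8.03 in DMSO-Light SCN (7.92 to 8.12). The neighbouring hypothalamus mean at CT4 was 8.10 (8.02 to 8.17) and 7.93 (7.86 to 8.01), also without overlap. The deviations of Ciart had correlations of -0.07 and 0.00 with these lists. The part of the hypothalamus list in the Ciart difference was not tested.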

How the results depend on the processing

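Of 180 differences of the members, 16 were called, and under 49 other settings none that was called changed sign; 195 of 3775 values changed sign with no call, all with a difference of at most 0.179. With the replicate number as a block, 17 calls were made over all comparisons and the time-by-treatment test, as without it, and no comparison's count changed. In the 2 pairs of groups whose numbers pair the arrays, a block fit on those 6 arrays alone, added after the data were seen, called 0 members, as without it (unadjusted p under 0.05 for 0 members at CT4 and 1 at CT15: Hlf, -0.18, adjusted p = 0.302). Each member has 1 probe set, so the mean of a gene's probe sets equals its brightest. At CT22 minus CT4 in DMSO-Sham SCN, 1 member (Dbp) was called after cyclic loess, after quantile normalization, with array weights and with the SCN marker covariate, against 0. With the sex covariates, 1 was called at CT15 minus CT4 in DMSO-Sham SCN, against 2, and 0 at CT22 minus CT4 in U0126-Light SCN, against 1, while Hlf was gained at CT22 minus CT4 in DMSO-Light SCN (3 against 2). With the SCN marker covariate, 0 were called at CT22 minus CT15 in DMSO-Light SCN, against 1. With only the arrays of the groups compared, 0 were called at CT15 minus CT4 in U0126-Light SCN, against 1 (Dbp, -0.44, adjusted p = 0.122), with fewer arrays in the fit. At an adjusted p of 0.05, 0 passed the time-by-treatment test, against 1. Apart from the threshold settings, whose construction shows the cause, the cause was not tested.

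With no fold threshold, at CT22 minus CT4 the calls were 3 in DMSO-Sham, 3 in DMSO-Light, 3 in U0126-Sham and 5 in the mean of treatments. In that order, 4711, 2705, 8237 and 25988 of the 65956 probe sets were called in the same way. At CT22 minus CT15 the member calls were 2 in DMSO-Sham, 2 in DMSO-Light, 3 in U0126-Sham, 1 in U0126-Light and 3 in the mean. They stood beside 10477, 13346, 21046, 14080 and 33780 of all probe sets. At CT15 minus CT4 the member calls were 3 in DMSO-Sham, U0126-Sham and the mean (Tef gained in each) and 2 in U0126-Light. They stood beside 4165, 6678, 16086 and 2128 of all probe sets. There was 1 member call for light in DMSO at CT22 (543 of all probe sets). There was also 1 for U0126 at CT22 in the mean of light and sham (1188 of all). Leaving out each array in turn gave 1 to 2 calls at CT15 minus CT4 in DMSO-Sham, in U0126-Sham and in the mean of treatments. It gave 0 to 1 at CT22 minus CT4 in DMSO-Sham and U0126-Light, at CT22 minus CT15 in DMSO-Sham and U0126-Sham, and in the time-by-treatment test. With 3 arrays of pooled mice a group and an SE of 0.067 to 0.091 for a difference, changes well below 1.3-fold were often not separable from the spread.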
